A study of Mus musculus with 9 samples.

Results

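The cadherin and protocadherin genes were taken from an RNA-seq table of fetal mouse midbrain as every gene whose symbol is Cdh followed by a number or starts with Pcdh, with Cdh5, the cadherin of endothelial cells, left out. This gave 92 of 21356 gene symbols, of which 22 were cadherins, 58 were clustered protocadherins (14 alpha, 22 beta and 22 gamma genes) and 12 were protocadherins outside the clusters. Poly-A selected RNA had been sequenced from the midbrain of C57BL/6 fetuses at E13.5, a stage at which midbrain neurons are being born, with 3 libraries per genotype. Floxed controls carried Gpr161 f/f, with no Cre in their label, Cre controls were heterozygous (Gpr161 f/+;Wnt1-Cre), and the conditional knockouts (cKO) joined both floxed alleles with Cre, a genotype that the labels spell Gpt161f/f;Wnt1-Cre. Gpr161 encodes a receptor of the primary cilium that holds back Sonic hedgehog signaling. Every fetus carried at least 1 floxed Gpr161 allele, and Wnt1-Cre, which acts in the dorsal neural tube, the midbrain and the neural crest, was present in both the Cre controls and the cKO, so the cKO differs from the floxed controls by the transgene as well as by the deletion. The labels do not say whether the 3 libraries of a genotype came from separate fetuses or litters. The p-values below therefore rest on the spread between these libraries.

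Cadherins are calcium-dependent adhesion proteins. The classical type I and type II cadherins bind like molecules on the neighbouring cell and are tied to actin through catenins, and their region-specific expression in the neural tube is known to help keep compartments, nuclei and axon tracts apart. Clustered protocadherins are arranged in alpha, beta and gamma arrays, from which a neuron uses a small, partly random set of promoters while a few C-type genes are used more constantly, and the proteins give neurons surface identities that serve self-avoidance and survival. The protocadherins outside the clusters, mostly of the delta-1 and delta-2 groups, act in cell sorting, axon growth and synapse formation.

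The deposited values are on a log2 scale after normalization between libraries by the authors. A gene was tested if it reached 1 cpm, computed from the linear values and their library sum, in at least 3 libraries, a limit between 4.73 and 4.78 on the log2 scale, and 83 of the 92 genes and 14029 genes in all did so. The 9 genes below it were Cdh9, Cdh12, Cdh16, Cdh19, Cdh26, Pcdha1, Pcdha8, Pcdhb1 and Pcdhb13, whose values lay between -1.48 and 4.74 in every library. Differences between genotypes are log2 fold changes from limma fitted across all 14029 genes, and a gene is said to rise or fall where its p, adjusted by the Benjamini-Hochberg procedure over all genes tested, was under 0.05. Low values had been compressed: the median SD within a genotype was 0.00398 for table rows with a mean between -3 and 0, against 0.0735 for those between 8 and 11, and fold changes of weakly expressed genes are understated. No read counts are part of the table, so the depth of the libraries is unknown.

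The targeted gene, Gpr161, had group means of 11.88 in the libraries labelled cKO and in the Cre controls and of 11.77 among floxed controls, so it was not lower in the cKO (limma adjusted p = 0.998 relative to the Cre controls). Only 1 value is given for the whole gene, which cannot show whether the floxed exons were lost, and the genotypes below rest on the labels. The midbrain genes Otx2 and En1 were present in every library, at 11.28 to 11.58 and 10.50 to 10.97. Of the 7 midbrain markers listed, 3 were lower in the cKO than in floxed controls at a limma adjusted p under 0.05 (median log2 fold change -0.0098). Against the Cre controls 1 was lower, Pou4f1, and all 7 log2 fold changes were below 0 (median -0.18). Pou4f1 was at 11.01, 11.01 and 11.29 in Cre controls and 10.41, 10.56 and 10.52 in the cKO. Cre control replicate 1 stood apart: it was the lowest of the Cre control libraries for 71 of the 83 genes (85.5%), against 45.5% of all genes tested. The numbers of the 83 genes that fell or rose against the Cre controls are therefore also given without it.

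The log2 fold change of the cKO was below 0 for 73 of the 83 genes against the floxed controls and for 71 against the Cre controls, whereas Cdh20 and Cdh1 rose against both. Against the floxed controls, 45 of the 83 genes fell, beside 18.8% of all genes tested, and 4 rose, beside 19.5% of all genes. Against the Cre controls, 10 fell, beside 4.85% of all genes, and 2 rose, beside 4.86% of all genes. All 12 had also changed in that direction against the floxed controls, where both calls together were made for 4.66% (lower) and 4.68% (higher) of all genes, and both comparisons share the cKO libraries. The median log2 fold change of the 83 genes was -0.24 against the floxed controls and -0.14 against the Cre controls, where that of all genes was 0.011 and 0.012. Between the controls no gene of the family passed the test, 18 had an unadjusted p under 0.05 (17.5% of all genes did), and the median of the 83 genes was -0.12 in Cre controls relative to the floxed controls. Across all genes, that comparison called 0.00713% lower and 0.0499% higher, and with a fold change over 1.5 as well 0.0285% higher and 0% lower. Without overlap between the groups, 65 genes were lower and 5 higher in the cKO than in floxed controls, beside 27.3% and 29.9% of all genes. The same counts were 27 and 2 against the Cre controls (13.7% and 17.8% of all genes), and 24 and 1 in Cre controls against the floxed controls (12.1% and 10.7%). The cKO libraries lay below all 6 control libraries for 26 genes, beside 11.5% of all genes, and above all 6 for 2, Cdh20 and Cdh1, beside 14.7% of all genes. The group means stepped down from floxed control to Cre control to cKO in 63 of 83 genes, against 30.6% of all genes tested. The step between the controls leaned on Cre control replicate 1. Over the 83 genes, the median difference from a gene's mean over all 9 libraries was -0.12 in that library. It was 0.089 and 0.077 in Cre control replicates 2 and 3, and 0.11 to 0.14 in floxed controls. Without Cre control replicate 1, the median of the clustered protocadherins between the controls was -0.049 instead of -0.13. In bulk tissue, fewer cells of a type and less RNA per cell cannot be told apart.

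All the falls were small. With a fold change over 1.5 also required, none of the 83 genes was lower in the cKO against either control, where 1.58% of all genes were lower against the floxed controls and 0.228% against the Cre controls. On that rule Cdh1, Cdh3 and Cdh20 were higher against the floxed controls (1.34% of all genes) and Cdh20 alone against the Cre controls (0.335% of all genes). Without Cre control replicate 1, 39 genes fell against the Cre controls, beside 12.5% of all genes, and 2 rose, beside 10.9% of all genes. Without cKO replicate 1 none fell against the Cre controls, 1 fell without Cre control replicate 2, 1 without Cre control replicate 3, 2 without cKO replicate 2, 5 without floxed control replicate 3 and 6 without cKO replicate 3. Over all genes tested, the shares called lower in these fits were, in the same order, 0.691%, 1.58%, 0.727%, 1.93%, 2.84% and 3.42%, so the calls became fewer across the whole table. With cKO replicate 1 omitted, 18 genes of the family had an unadjusted p under 0.05 by limma, beside 19.6% of all genes. Fitted on the 6 libraries of the comparison alone, with no floxed control, limma called 1 gene of the family lower than in Cre controls, Cdh7 (adjusted p = 0.0312), and 1 higher, Cdh20 (adjusted p = 0.00312), beside 1.51% and 1.60% of all genes. The count of falls against the floxed controls was 31 without cKO replicate 1 and 59 without Cre control replicate 1, where 12.6% and 22.6% of all genes fell.

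**Figure D1:**
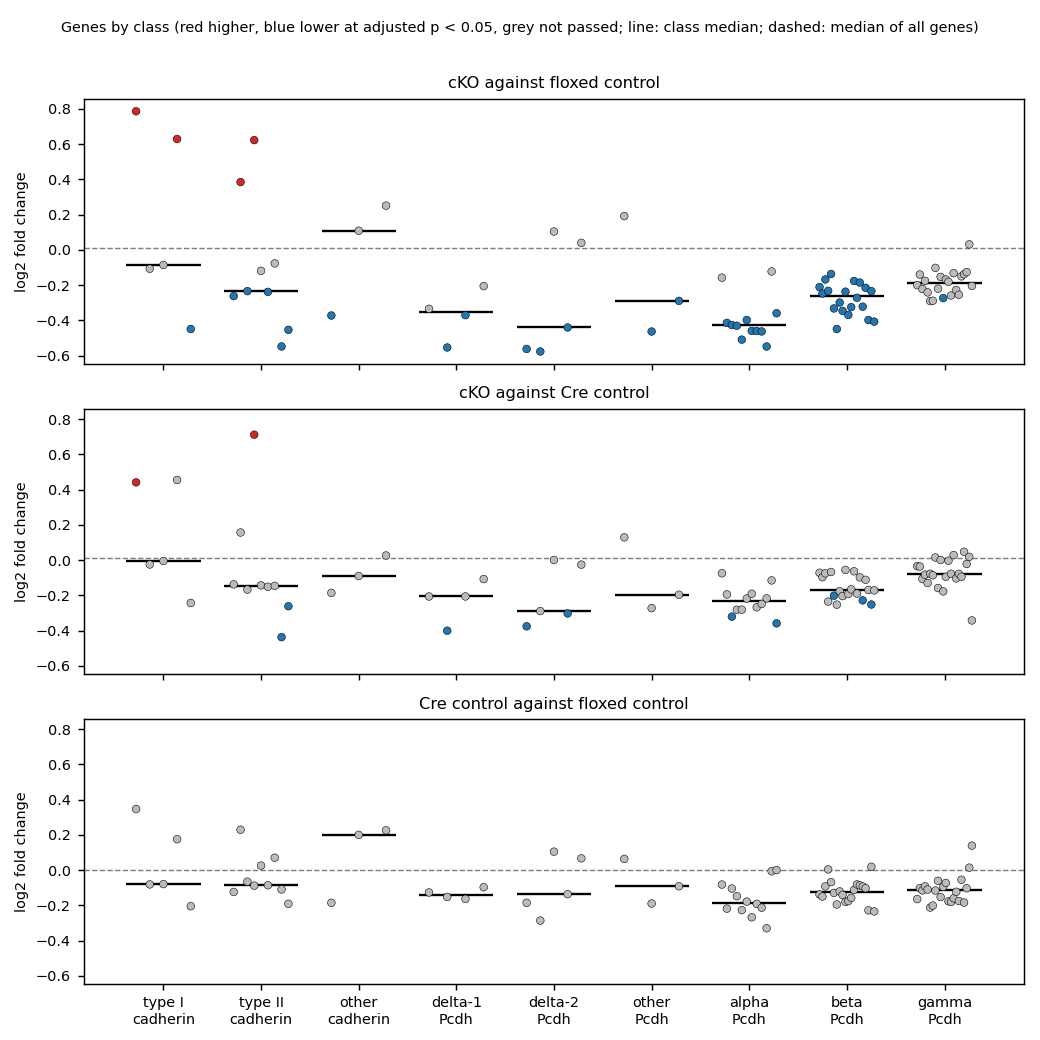
Log2 fold changes of the 83 tested genes (vertical axis) by class (horizontal axis) in the 3 comparisons; each point is a gene, red if higher and blue if lower at an adjusted p under 0.05 by limma, black bars are class medians and the dashed line is the median of all genes tested. Against the floxed controls all 20 beta genes and 10 of 12 alpha genes are blue, while the red points are Cdh1, Cdh3, Cdh11 and Cdh20.

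The marker genes of neurons moved in the same direction as the family. All 14 neuronal markers, among them Dcx, Gap43 and Snap25, fell against the floxed controls (median -0.53) and 4 fell against the Cre controls. Their summed linear level was 197500 to 215000 in floxed controls, 151400 to 190000 in Cre controls, where replicate 1 was lowest, and 133300 to 154200 in the cKO. Of 12 markers of neural progenitors, 8 rose against the floxed controls and 4 against the Cre controls, with summed levels of 102300 to 107900, 104400 to 114600 and 119700 to 129200 in floxed controls, the Cre controls and the cKO. Other marker lists moved as well, among them the midbrain list given above. Of 2 telencephalon markers tested, 1 fell against the floxed controls and 1 against the Cre controls (medians -0.39 and -0.37). Of 4 hindbrain markers 3 fell against the floxed controls (median -0.87) and none passed against the Cre controls (median 0.046, none at an unadjusted p under 0.05), while the median of the Cre controls relative to the floxed controls was -0.89, with none past the test and 4 at an unadjusted p under 0.05. Their summed level was 568 to 917.2, 435.1 to 564.4 and 516.5 to 528.8 in floxed control, Cre control and cKO libraries. Of 5 choroid plexus markers 1 fell against the floxed controls (median -1.36) and none passed against the Cre controls (median -0.16), with summed levels of 2810 to 14560, 931.1 to 6086 and 1303 to 2677. Of 9 erythroid genes, 6 rose against the floxed controls and 4 against the Cre controls (medians 0.70 and 0.86), with summed levels of 148400 to 251800, 178400 to 206100 and 230300 to 446900. No marker on these lists was at 0 in any library, and their part in the lower cadherin and protocadherin values was not tested. Library values also varied with transcript length, with a slope per doubling of length between 0.022 and 0.040 in the 3 floxed controls, at 0.030 and 0.027 in Cre control replicates 2 and 3, at -0.044 in Cre control replicate 1 and between -0.045 and -0.016 in the cKO. With GC content and length corrected, which could be done for 82 of the 83 genes, 46 fell and 6 rose against the floxed controls, beside 19.8% and 18.9% of all genes so corrected, and 11 fell and 2 rose against the Cre controls, beside 5.97% and 5.45%.

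Among the type II cadherins, whose members mark regions and tracts of the neural tube, Cdh20 was higher and Cdh7 and Cdh8 were lower in the cKO than in either control. Cdh20 (chr1:104768529-104995481, GRCm38) had log2 values of 8.30, 8.19 and 8.20 in floxed controls, 8.13, 8.19 and 8.11 in Cre controls and 8.77, 8.90 and 8.90 in the cKO. All 3 cKO libraries were above all 6 controls, and the controls lay close together. With the Cre controls as reference the log2 fold change was 0.71 (SE 0.058, limma adjusted p = 0.000452), and with the floxed controls as reference 0.62 (SE 0.058, limma adjusted p = 0.000216). Its level per kilobase of transcript on the linear scale was 74.9 in floxed controls, 70.4 in Cre controls and 115 in the cKO. It passed the test against both controls in all alternative fits.

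Cdh7, which lies on the same chromosome as Cdh20 (chr1:109982431-110140157), moved in the opposite direction. Its log2 values were 8.05, 8.27 and 8.13 in floxed controls, 7.92, 8.03 and 8.17 in Cre controls and 7.58, 7.59 and 7.64 in the cKO. The cKO libraries lay close together, and all were below every control. Its log2 value fell by 0.55 against the floxed controls (SE 0.076, limma adjusted p = 0.000905) and fell by 0.44 against the Cre controls (SE 0.076, limma adjusted p = 0.0132), the latter with an adjusted p of 0.0524 without cKO replicate 1. Cdh8 (chr8:99024471-99416471), a type II cadherin of developing axon tracts, stepped down from floxed control to Cre control to cKO, with values of 10.84, 10.70 and 10.78 in floxed controls, 10.49, 10.56 and 10.69 in Cre controls and 10.32, 10.29 and 10.36 in the cKO. The cKO and the controls did not overlap, nor did the floxed and the Cre controls. On the log2 scale the cKO stood at -0.26 (SE 0.057, limma adjusted p = 0.0253) relative to the Cre controls and at -0.45 (SE 0.057, limma adjusted p = 0.000652) relative to the floxed controls. The adjusted p against the Cre controls rose to between 0.0544 and 0.0895 without cKO replicate 1, cKO replicate 2, Cre control replicate 2 or Cre control replicate 3.

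The other type II cadherins changed only against the floxed controls or not at all. Cdh10 (-0.26, limma adjusted p = 0.0188), Cdh18 (-0.23, adjusted p = 0.0188) and Cdh24 (-0.24, adjusted p = 0.00287) fell against the floxed controls, and none of them passed against the Cre controls, where Cdh24 came closest (log2 fold change -0.15, limma adjusted p = 0.057). Without cKO replicate 1 the adjusted p against the floxed controls was 0.0691 for Cdh10 and 0.0688 for Cdh18. Cdh10 was also lost without floxed control replicate 1 (0.0593 by limma) or 2 (0.0545), and Cdh18 without floxed control replicate 3 (0.0691) or cKO replicate 2 (0.0596). Cdh6, a cadherin of early neural tube and neural crest, had values of 9.90, 9.89 and 9.95 in floxed controls, 9.72, 10.14 and 10.08 in Cre controls and 9.84, 9.95 and 9.71 in the cKO. The genotypes overlapped. Measured from the floxed controls it was at -0.076 on the log2 scale, with a 95% interval of -0.30 to 0.15, and measured from the Cre controls at -0.15, with an interval of -0.37 to 0.076. Cdh22 was at -0.12 and -0.14 in the same comparisons and did not pass (limma adjusted p = 0.198 and 0.194).

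Cdh11 (chr8:102632095-102785642), the OB-cadherin of mesenchyme and forming bone, was among the most abundant members, at 870 per kilobase. Its values were 11.999, 12.31 and 11.82 in floxed controls, 12.05, 12.43 and 12.33 in Cre controls and 12.43, 12.41 and 12.44 in the cKO. The cKO libraries were nearly equal and above all 3 floxed controls, while they overlapped the Cre controls. In limma the log2 fold change of Cdh11 came to 0.16 (SE 0.12, limma adjusted p = 0.408) from the Cre controls and 0.39 (SE 0.12, limma adjusted p = 0.0281) from the floxed controls. Against the floxed controls the limma adjusted p was 0.0817 and 0.106 when floxed control replicate 1 or 3 was left out, and 0.0733, 0.0643 and 0.0709 without cKO replicate 1, 2 and 3. Of 10 markers of meninges and mesenchyme, 8 rose against the floxed controls and none passed by limma against the Cre controls, where 2 had an unadjusted p under 0.05, and their summed linear level was 30730 to 55780 in floxed controls, 39260 to 64480 in Cre controls and 65620 to 68360 in the cKO. Their part in the Cdh11 values was not tested.

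**Figure D2:**
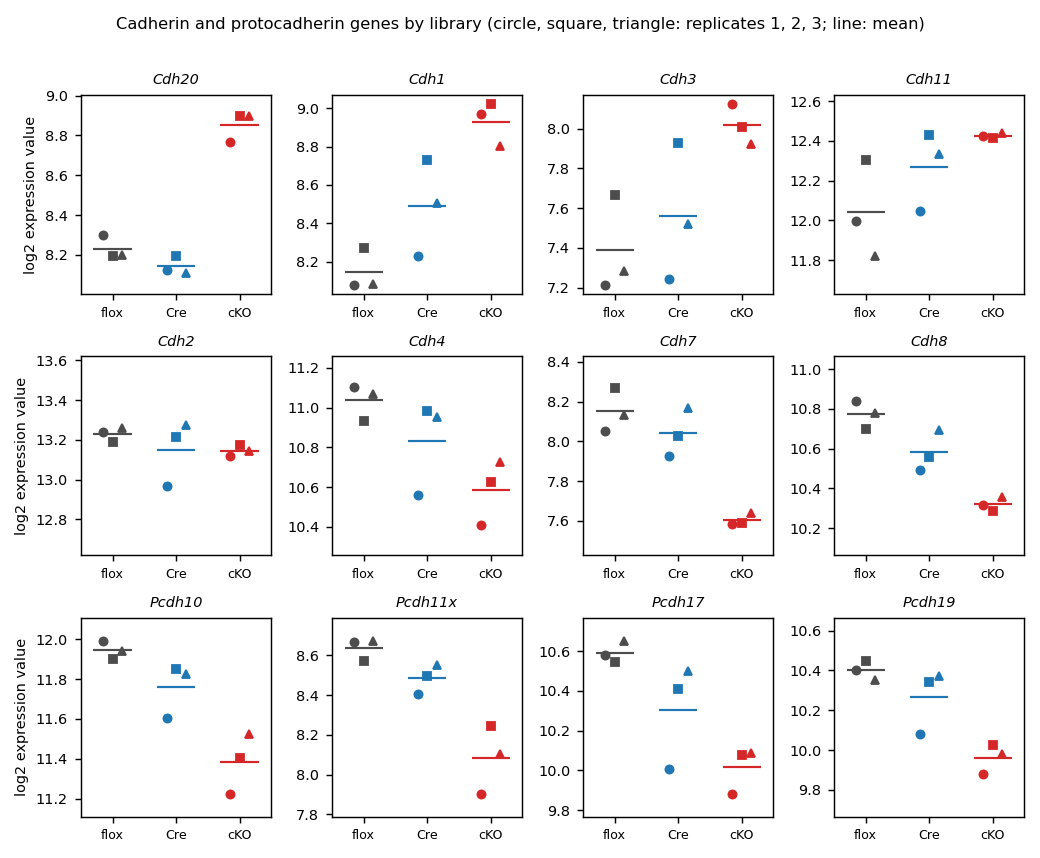
Log2 expression values (vertical axes, 1 panel per gene, each with its own range) of 12 cadherin and protocadherin genes in the 3 libraries of the floxed controls, the Cre controls and the cKO; symbols mark replicates and lines group means. Cdh20 and Cdh1 lie above all controls in the cKO, and Cdh7, Cdh8, Pcdh10, Pcdh11x and Pcdh19 below them. In Cdh2 the cKO overlaps the Cre controls but not the floxed controls.

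Of the 5 type I cadherins, Cdh1 rose in the cKO against both controls, Cdh3 rose and Cdh4 fell against the floxed controls, and Cdh2 and Cdh15 did not pass in any comparison. Cdh1 (chr8:106603351-106670246) encodes E-cadherin, the adhesion protein of epithelia. Its log2 values were 8.08, 8.27 and 8.08 in floxed controls, 8.23, 8.73 and 8.51 in Cre controls and 8.97, 9.02 and 8.80 in the cKO. All cKO libraries were above all controls, and the Cre controls lay between, with replicate 1 inside the floxed control range. Measured from the floxed controls, the log2 change in Cdh1 was 0.79 (SE 0.12, limma adjusted p = 0.00113), and measured from the Cre controls 0.44 (SE 0.12, limma adjusted p = 0.043). The call against the Cre controls was lost without floxed control replicate 1, floxed control replicate 3, Cre control replicate 3 or any 1 of the cKO libraries, with adjusted p between 0.0543 and 0.146.

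Cdh3 (chr8:106510891-106557297), the P-cadherin of surface epithelia, is the neighbour of Cdh1 and had values of 7.21, 7.67 and 7.28 in floxed controls, 7.24, 7.93 and 7.52 in Cre controls and 8.12, 8.01 and 7.92 in the cKO. The cKO was above the floxed controls and touched the range of the Cre controls, whose replicate 2 was as high as the lowest cKO library. Cdh3 differed by 0.63 (SE 0.16, limma adjusted p = 0.0137) from the floxed controls and by 0.45 (SE 0.16, limma adjusted p = 0.103) from the Cre controls on the log2 scale. Against the floxed controls the adjusted p was 0.0536 without cKO replicate 1, and 0.0536 and 0.0528 when floxed control replicate 1 or 3 was left out. Markers of surface epithelium rose with both genes against the floxed controls. Of 7 tested, 6 rose against the floxed controls and 1, Epcam, against the Cre controls, with a summed linear level of 664.5 to 775.7 in floxed controls, 865 to 2543 in Cre controls and 2482 to 2828 in the cKO. Krt5, a keratin of basal epidermis, was at 7.30, 7.33 and 7.39 in floxed controls, 8.12, 10.48 and 9.70 in Cre controls and 10.54, 10.35 and 10.51 in the cKO. The Cre controls were spread over most of the range from floxed control to cKO, with replicate 1 lowest and replicate 2 highest, the order that Cdh1, Cdh3 and 6 of the 8 listed epithelial markers showed. In Krt18 and Cldn7 replicate 3 was lowest, and in Krt8 and Krt18 the mean of the Cre controls was below that of the floxed controls. The part of epithelial cells in the Cdh1 and Cdh3 values was not tested.

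**Figure D3:**
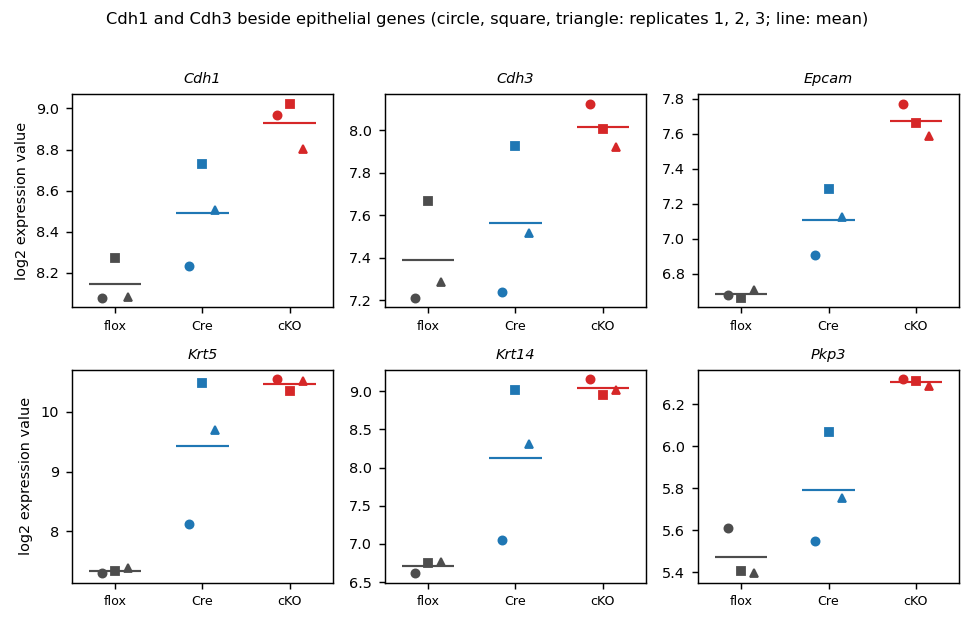
Log2 expression values (vertical axes, each panel with its own range) of Cdh1, Cdh3 and 4 other epithelial genes (Epcam, Krt5, Krt14 and the plakophilin Pkp3) by genotype; symbols mark replicates and lines group means. In all 6 genes the Cre control libraries are ordered replicate 1, 3, 2 from low to high, and the cKO mean is the highest. The 4 others were picked for display, and this order holds in 6 of the 8 listed epithelial markers.

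Cdh2 (chr18:16588877-16809246), the N-cadherin that joins the cells of the neuroepithelium, was the most abundant gene of the family per length, at 1913 per kilobase on the linear scale. Its log2 values were 13.24, 13.19 and 13.26 in floxed controls, 12.97, 13.21 and 13.27 in Cre controls and 13.12, 13.17 and 13.14 in the cKO. Only Cre control replicate 1 lay clearly below the others, and the genotypes overlapped apart from the floxed controls and the cKO, which did not. The log2 fold change was -0.085 against the floxed controls (95% interval -0.24 to 0.069, limma adjusted p = 0.354) and -0.0055 against the Cre controls (95% interval -0.16 to 0.15, limma adjusted p = 0.967).

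Cdh4 (chr2:179442431-179899373), the R-cadherin of brain and retina, had values of 11.10, 10.93 and 11.07 in floxed controls, 10.56, 10.98 and 10.95 in Cre controls and 10.41, 10.63 and 10.72 in the cKO. The cKO was below the floxed controls, while Cre control replicate 1 fell among the cKO libraries. With the Cre controls as reference the log2 fold change was -0.24 (SE 0.11, limma adjusted p = 0.183), and with the floxed controls as reference -0.45 (SE 0.11, limma adjusted p = 0.0118). Cdh13, the T-cadherin, which is anchored to the membrane by a lipid and lacks a cytoplasmic part, had values of 10.29, 10.18 and 10.26 in floxed controls, 9.83, 10.18 and 10.16 in Cre controls and 9.65, 9.98 and 9.98 in the cKO. Again Cre control replicate 1 lay within the range of the cKO, which was below the floxed controls. On the log2 scale the cKO stood at -0.19 (limma adjusted p = 0.27) relative to the Cre controls and at -0.37 (limma adjusted p = 0.0207) relative to the floxed controls. Cdh15, the M-cadherin of muscle, and Cdh17 and Cdh23 were low, at group means between 4.83 and 6.80, and did not pass in any comparison. Against the floxed controls, the limma adjusted p without cKO replicate 1 was 0.05001 for Cdh4, just above the threshold, and 0.074 for Cdh13, which was 0.0662 and 0.0625 without floxed control replicates 1 and 3.

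Among the 12 protocadherins outside the clusters, 7 fell against the floxed controls, beside 18.8% of all genes. Of these, 3 also fell against the Cre controls, Pcdh10, Pcdh11x and Pcdh19, where 4.66% of all genes fell against both controls. None rose. Pcdh10 (chr3:45378398-45435623), a delta-2 protocadherin that binds the actin-regulating WAVE complex and guides axons, had log2 values of 11.99, 11.90 and 11.94 in floxed controls, 11.60, 11.85 and 11.83 in Cre controls and 11.23, 11.40 and 11.52 in the cKO. The cKO lay below all controls, with its highest library just under Cre control replicate 1. In limma the log2 fold change of Pcdh10 came to -0.38 (SE 0.081, limma adjusted p = 0.0245) from the Cre controls and -0.56 (SE 0.081, limma adjusted p = 0.00106) from the floxed controls. Pcdh19 (chrX:133582860-133688987), an X-linked delta-2 gene whose loss underlies an epilepsy of girls, had values of 10.40, 10.45 and 10.35 in floxed controls, 10.08, 10.34 and 10.37 in Cre controls and 9.88, 10.03 and 9.98 in the cKO. Here too the cKO was below all 6 controls. Measured from the floxed controls, the log2 change in Pcdh19 was -0.44 (SE 0.075, limma adjusted p = 0.00203), and measured from the Cre controls -0.30 (SE 0.075, limma adjusted p = 0.0359).

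Pcdh11x (chrX:120290259-120910619), a delta-1 gene on the X chromosome, had values of 8.67, 8.57 and 8.67 in floxed controls, 8.41, 8.50 and 8.55 in Cre controls and 7.90, 8.25 and 8.10 in the cKO. The cKO libraries were all below the controls and differed among themselves more than the controls did. Pcdh11x differed by -0.55 (SE 0.083, limma adjusted p = 0.00124) from the floxed controls and by -0.40 (SE 0.083, limma adjusted p = 0.0215) from the Cre controls on the log2 scale. Without Cre control replicate 1 the adjusted p against the Cre controls was 0.00467 for Pcdh10, 0.0104 for Pcdh11x and 0.00284 for Pcdh19, and without cKO replicate 1 it was 0.0853, 0.0656 and 0.138. The 3 calls were also lost without Cre control replicate 2 (limma adjusted p = 0.0693, 0.0562 and 0.0985) or Cre control replicate 3 (0.0879, 0.0812 and 0.122), and those of Pcdh10 and Pcdh19 without cKO replicate 2 (0.0624 and 0.0654). Pcdh19 was lost as well without cKO replicate 3 (0.0703), floxed control replicate 1 (0.0532) or floxed control replicate 3 (0.0561).

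Pcdh17 (chr14:84443563-84539002), a delta-2 protocadherin of axons and synapses, had the largest fall of the family against the floxed controls and values of 10.58, 10.55 and 10.65 in floxed controls, 10.01, 10.41 and 10.50 in Cre controls and 9.88, 10.08 and 10.09 in the cKO. Cre control replicate 1 lay among the cKO libraries, and the other Cre controls lay between them and the floxed controls. With the Cre controls as reference the log2 fold change was -0.29 (SE 0.11, limma adjusted p = 0.119), and with the floxed controls as reference -0.58 (SE 0.11, limma adjusted p = 0.00347). Pcdh7, a delta-1 gene, had values of 10.54, 10.51 and 10.52 in floxed controls, 10.18, 10.51 and 10.39 in Cre controls and 10.02, 10.32 and 10.11 in the cKO. The cKO was below the floxed controls and overlapped the Cre controls, with log2 fold changes of -0.37 (limma adjusted p = 0.00956) and -0.21 (limma adjusted p = 0.156). Pcdh15, which forms the tip links of hair cells together with Cdh23, and Pcdh20 also fell against the floxed controls, with log2 fold changes of -0.46 and -0.29 (limma adjusted p = 0.00529 and 0.0217). The adjusted p of Pcdh20 was 0.0734 without floxed control replicate 1, 0.0821 without cKO replicate 1 and 0.0604 without cKO replicate 3, by limma.

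Other abundant protocadherins of the delta groups did not pass in any comparison. Pcdh8, at 475 per kilobase, had log2 values of 11.08, 10.94 and 11.08 in floxed controls, 11.06, 10.99 and 11.24 in Cre controls and 10.93, 11.25 and 11.03 in the cKO. Pcdh18, at 442 per kilobase, had values of 11.18, 11.10 and 10.98 in floxed controls, 11.11, 11.26 and 11.20 in Cre controls and 11.33, 11.14 and 11.09 in the cKO. Both overlapped between all genotypes. The 95% interval of the difference from the Cre controls was -0.22 to 0.17 for Pcdh8 and -0.16 to 0.16 for Pcdh18. Pcdh9 had log2 fold changes of -0.21 against the floxed controls and -0.11 against the Cre controls (limma adjusted p = 0.154 and 0.53), and Pcdh1 of -0.33 and -0.21 (adjusted p = 0.0555 and 0.288). Pcdh12, a protocadherin of endothelium, was at 0.19 and 0.13 (limma adjusted p = 0.103 and 0.345). Of 8 endothelial markers 4 rose against the floxed controls and none passed against the Cre controls (1 at an unadjusted p under 0.05), with summed levels of 5967 to 7696, 6469 to 8237 and 7848 to 8438 in floxed controls, the Cre controls and the cKO. Cdh5, not a member, was at 10.57, 10.73 and 10.85 in the same order.

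The clustered protocadherins lie in a single stretch of chromosome 18, where GRCm38 places the alpha genes at chr18:36930184-37187661, the beta genes at chr18:37264938-37524479 and the gamma genes at chr18:37661793-37841873. Of the 54 tested, 31 fell and none rose against the floxed controls, where 18.8% of all genes fell and 19.5% rose. Against the Cre controls 5 fell and none rose, where 4.85% of all genes fell and 4.86% rose. The arrays differed in their counts. All 20 beta genes and 10 of 12 alpha genes fell against the floxed controls, but only 1 of 22 gamma genes did, with medians of -0.26, -0.43 and -0.19. Against the Cre controls, 3 beta, 2 alpha and no gamma genes fell, with medians of -0.17, -0.23 and -0.078, and 2 gamma genes had an unadjusted p under 0.05, as did 29.3% of all genes. The counts moved with the libraries fitted: between 12 (without cKO replicate 1) and 20 beta genes, and between 9 (without cKO replicate 1) and 11 alpha genes fell against the floxed controls when 1 library was left out, with 13 beta genes without floxed control replicate 3. Over all genes these fits called between 12.6% and 22.6% lower. Fitted on the 6 libraries of that comparison alone, 20 beta, 10 alpha and 12 gamma genes fell, and so did 21.5% of all genes. These differences between arrays were not tested, since the genes of an array share a locus and, in part, reads. Without Cre control replicate 1, which also enters the estimate of the spread, 13 gamma genes fell against the floxed controls (22.6% of all genes), and against the Cre controls 9 alpha, 8 beta and 9 gamma genes fell (12.5% of all genes).

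Alpha and gamma transcripts end in exons shared by their array, which made up 48.6% to 54.9% of the annotated transcript of the 13 alpha genes found in the annotation and 7.1% to 66.8% of the gamma transcripts. Beta genes share no exons except Pcdhb21 (9.7%) and Pcdhb22 (6.9%). The split of reads among alpha or gamma genes rests on the authors' estimation and is uncertain for single genes, while the sum over an array depends less on it. On the linear scale the alpha sum over all 14 genes was 2347, 2233 and 2332 in floxed controls, 1873, 2179 and 2176 in Cre controls and 1632, 1751 and 1824 in the cKO. The beta sum was 2381, 2421 and 2405 in floxed controls, 2064, 2249 and 2245 in Cre controls and 1870, 1990 and 1969 in the cKO. For both arrays every cKO library was below every control. The gamma sum was 14890, 15060 and 15380 in floxed controls, 12020, 15370 and 14920 in Cre controls and 13060, 13760 and 13800 in the cKO, so that here Cre control replicate 1 was the lowest library of all. The ratio of the cKO mean to the floxed control mean was 0.753 for alpha, 0.809 for beta and 0.896 for gamma. The ratio to the Cre control mean was 0.836, 0.889 and 0.960, and 0.797, 0.865 and 0.894 without Cre control replicate 1.

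**Figure D4:**
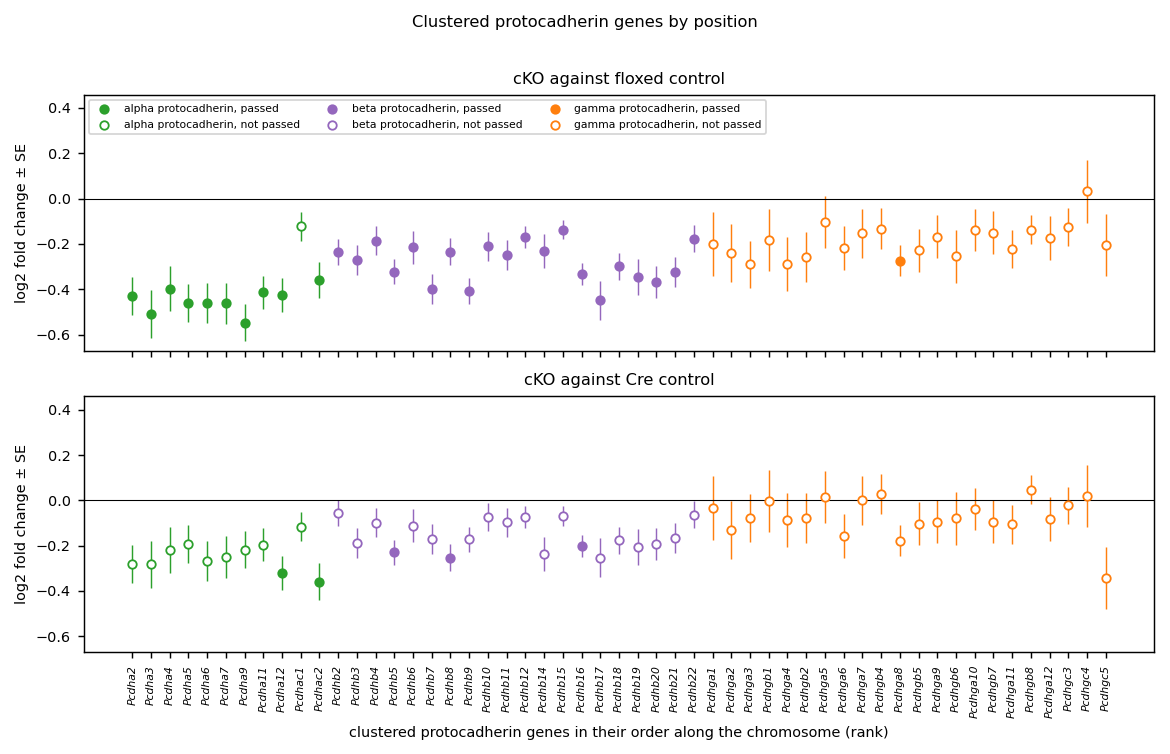
Log2 fold change with its standard error (vertical axis) of 53 clustered protocadherin genes in their order along the chromosome (horizontal axis, by rank), with filled points for genes past an adjusted p of 0.05 by limma and open points for the others. Filled points cover the beta array and most of the alpha array against the floxed controls, 5 genes against the Cre controls, and 1 gamma gene in all.

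The C-type alpha gene Pcdhac2 fell against both controls. Its log2 values were 8.89, 8.79 and 8.76 in floxed controls, 8.66, 8.85 and 8.94 in Cre controls and 8.43, 8.37 and 8.57 in the cKO. The controls overlapped each other, and the cKO lay below all of them. On the log2 scale the cKO stood at -0.36 (SE 0.081, limma adjusted p = 0.0276) relative to the Cre controls and at -0.36 (SE 0.081, limma adjusted p = 0.007) relative to the floxed controls. Pcdhac1, the other C-type alpha gene, was at -0.12 and -0.12 and did not pass (limma adjusted p = 0.163 and 0.262). Pcdha12 had values of 7.59, 7.60 and 7.55 in floxed controls, 7.36, 7.58 and 7.48 in Cre controls and 7.01, 7.22 and 7.24 in the cKO. Its cKO libraries were below all controls, with replicate 1 lowest. In limma the log2 fold change of Pcdha12 came to -0.32 (SE 0.076, limma adjusted p = 0.0325) from the Cre controls and -0.43 (SE 0.076, limma adjusted p = 0.00252) from the floxed controls. The largest alpha fall against the floxed controls was that of Pcdha9 at -0.55 (limma adjusted p = 0.00125), and against the Cre controls this gene was at -0.22 (limma adjusted p = 0.115). Both calls against the Cre controls were lost without cKO replicate 1, cKO replicate 2, Cre control replicate 2 or Cre control replicate 3, with adjusted p between 0.0724 and 0.105 for Pcdhac2 and between 0.0619 and 0.116 for Pcdha12, which was also lost without floxed control replicate 3 (0.0526).

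In the beta array, whose genes each consist of a single coding exon, Pcdhb5, Pcdhb8 and Pcdhb16 fell against both controls. Pcdhb8 had log2 values of 6.56, 6.67 and 6.66 in floxed controls, 6.57, 6.75 and 6.63 in Cre controls and 6.43, 6.39 and 6.38 in the cKO. Pcdhb5 had values of 7.21, 7.19 and 7.13 in floxed controls, 6.997, 7.11 and 7.15 in Cre controls and 6.87, 6.84 and 6.86 in the cKO. Pcdhb16 had values of 6.62, 6.59 and 6.62 in floxed controls, 6.43, 6.52 and 6.503 in Cre controls and 6.28, 6.31 and 6.25 in the cKO. In all 3 genes the cKO libraries lay below the 6 controls, and in Pcdhb8 and Pcdhb5 the controls overlapped each other. The log2 fold changes against the floxed controls were -0.23, -0.32 and -0.33 (limma adjusted p = 0.0135, 0.00225 and 0.0012), and against the Cre controls -0.25, -0.23 and -0.20 (limma adjusted p = 0.034, 0.0358 and 0.0356). Against the Cre controls none of the 3 passed without floxed control replicate 3, Cre control replicate 2 or 3, or any 1 of the cKO libraries, and Pcdhb16 did not pass without floxed control replicate 1, with limma adjusted p between 0.0501 and 0.123. Against the floxed controls Pcdhb8 was at 0.0503 without floxed control replicate 3. Over the array, the fall measured from the floxed controls ranged from -0.14 in Pcdhb15 to -0.45 in Pcdhb17, and the cKO and the floxed controls did not overlap in any of the 20 genes, where 27.3% of all genes were lower without overlap. Against the Cre controls 12 of the 20 did not overlap, beside 13.7% of all genes.

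In the gamma array, Pcdhga8 fell against the floxed controls, with values of 8.42, 8.36 and 8.47 in floxed controls, 8.18, 8.43 and 8.36 in Cre controls and 8.14, 8.10 and 8.20 in the cKO and a log2 fold change of -0.27 (SE 0.07, limma adjusted p = 0.0122). The cKO lay below the floxed controls and overlapped with Cre control replicate 1, and without floxed control replicate 3 the limma adjusted p was 0.0501. Pcdhgc3, a C-type gene and the most abundant of the clusters at 1093 per kilobase, had values of 12.38, 12.39 and 12.42 in floxed controls, 12.07, 12.43 and 12.38 in Cre controls and 12.17, 12.30 and 12.34 in the cKO and log2 fold changes of -0.13 and -0.022 (limma adjusted p = 0.256 and 0.881). Pcdhgc4, the C-type gene needed for the survival of many neurons, was spread from 9.84 to 10.39 in the cKO, overlapping both controls, and did not pass (95% interval -0.27 to 0.34 against the floxed controls). Pcdhgc5 had values of 7.20, 6.90 and 7.06 in floxed controls, 7.28, 7.15 and 7.15 in Cre controls and 6.51, 6.91 and 7.13 in the cKO and the lowest gamma estimate against the Cre controls, -0.34 (limma adjusted p = 0.13). Cre control replicate 1 was the lowest of all 9 libraries in 18 of 22 gamma genes (81.8%), compared with 16.0% of all genes tested and with none of the 20 beta and 12 alpha genes. Between the floxed controls and the cKO, 16 of the 22 gamma genes were lower without overlap, beside 27.3% of all genes. Between the Cre controls and the cKO 1 was, beside 13.7% of all genes.

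**Figure D5:**
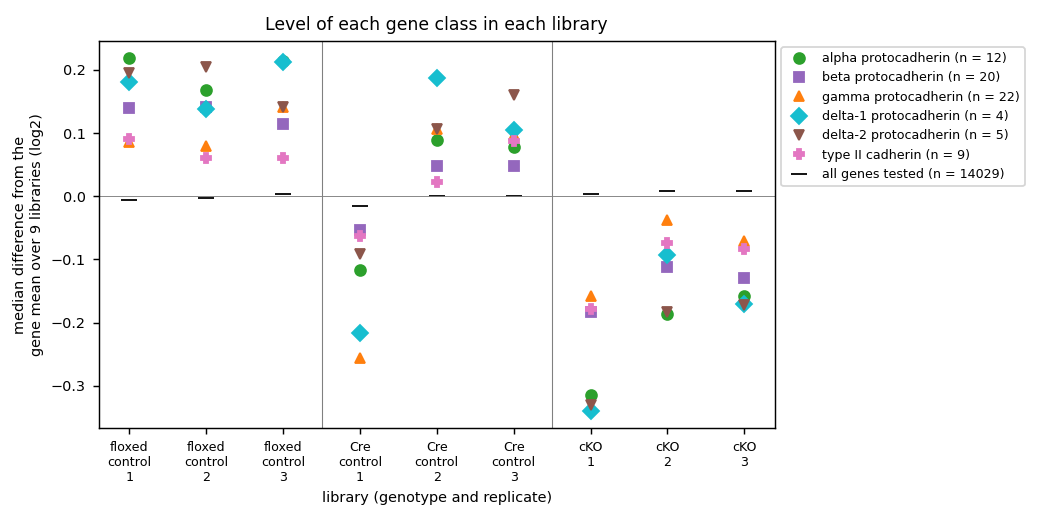
Median, over the tested genes of a class, of the difference between a library's log2 value and the gene's mean over the 9 libraries (vertical axis), for 6 gene classes and all genes tested (symbols), in each library (horizontal axis). The floxed controls and Cre control replicates 2 and 3 lie above 0 for each of the 6 classes, the cKO and Cre control replicate 1 lie below 0, and the gamma genes are at -0.26 in Cre control replicate 1. The classes not shown depart from this in some libraries. Other cadherins are at -0.14 to -0.012 in the floxed controls. Type I cadherins and the protocadherins outside the clusters and delta groups are at -0.014 and -0.038 in Cre control replicate 3.

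Of the genes that changed against both controls, Cdh20, Cdh8, Pcdh10 and Pcdh19 have a RefSeq promoter entry whose 250 bases before the start hold no annotated exon. These bases are printed 5′ to 3′ in the direction of the gene (RefSeq, GRCm38.p6), because Cdh20 rose where the other 3 fell, and capitals mark the CCAAT box, read as CCAAT or its reverse complement ATTGG. The windows are chr1:104768270-104768519, forward strand for Cdh20, chr8:99416472-99416721, reverse strand for Cdh8, chr3:45378148-45378397, forward strand for Pcdh10 and chrX:133688994-133689243, reverse strand for Pcdh19.
Cdh20: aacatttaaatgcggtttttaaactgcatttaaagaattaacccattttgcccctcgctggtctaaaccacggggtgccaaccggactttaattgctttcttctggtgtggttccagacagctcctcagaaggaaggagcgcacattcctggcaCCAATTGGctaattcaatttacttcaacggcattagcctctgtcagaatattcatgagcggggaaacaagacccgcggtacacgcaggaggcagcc
Cdh8: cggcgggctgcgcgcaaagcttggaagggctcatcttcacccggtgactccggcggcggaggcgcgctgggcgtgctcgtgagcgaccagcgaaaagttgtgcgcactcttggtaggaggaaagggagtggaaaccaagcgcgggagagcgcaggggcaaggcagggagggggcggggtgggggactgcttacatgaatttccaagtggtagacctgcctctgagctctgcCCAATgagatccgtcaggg
Pcdh10: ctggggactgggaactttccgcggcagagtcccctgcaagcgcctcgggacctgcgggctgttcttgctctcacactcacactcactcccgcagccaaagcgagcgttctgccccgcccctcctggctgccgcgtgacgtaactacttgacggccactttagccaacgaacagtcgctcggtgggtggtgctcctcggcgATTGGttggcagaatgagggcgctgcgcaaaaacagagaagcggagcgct
Pcdh19: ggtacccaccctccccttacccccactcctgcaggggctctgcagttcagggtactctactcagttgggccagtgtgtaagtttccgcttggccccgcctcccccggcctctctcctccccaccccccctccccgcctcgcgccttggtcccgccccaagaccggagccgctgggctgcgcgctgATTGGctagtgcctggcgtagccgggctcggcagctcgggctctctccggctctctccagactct

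Of the windows printed, that of Cdh20, the gene that rose, had the least GC, at 47.6% with 10 CpG. The others had 64.4% and 20 in Cdh8, 63.2% and 22 in Pcdh10 and 69.2% and 16 in Pcdh19. The median of all 32851 promoters was 52.4% and 6. Among windows not printed, those of genes that fell against the floxed controls lay on both sides of Cdh20. They had 36.8% in Cdh10 and 42.4% in Pcdh20, but 58% in Cdh18 and 72.8% in Cdh24. A link between GC and direction was not tested. Promoter entries were taken for 22 of the 92 genes. A gene was counted if any of its entries held the motif, and Cdh7 and Pcdh9 had several entries. The share of all promoters is per entry instead, so the numbers below are not on the same unit. Genes on chromosome 18, with the clustered protocadherins, Cdh2, Pcdh1 and Pcdh12, were left out of this search. The set of all promoters was not filtered by chromosome. On either strand, CCAAT was in 14 of the 22 and in 33.8% of all promoters, the E-box CANNTG in 12 and in 66.2%, and TATAAA in 2 and in 12.4%. In the Cdh20 window the run CCAATTGG is CCAAT and ATTGG overlapping by 2 bases, and it also holds an E-box match. The Gli site GACCACCCA was in none and in 0.225% of all promoters, and the cAMP response element TGACGTCA was in none and in 1.55%. A match is a run of letters only, and the CCAAT box was chosen for the capitals after these counts were seen.

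Genes whose proteins work with cadherins were compared in the same fit. For all lists below, the shares over all genes were 19.5% higher and 18.8% lower against the floxed controls. Against the Cre controls they were 4.86% and 4.85%. Of 13 catenins and junction linkers tested, 4 rose and 2 fell against the floxed controls, and Ctnna1 and Pkp3 rose against the Cre controls as well. Ctnna1, the alpha-catenin of epithelia and progenitors that links cadherins to actin, had log2 values of 12.11, 12.19 and 12.14 in floxed controls, 12.16, 12.37 and 12.38 in Cre controls and 12.60, 12.56 and 12.51 in the cKO, and its log2 fold change was 0.41 (limma adjusted p = 0.000994) against the floxed controls and 0.25 (limma adjusted p = 0.03) against the Cre controls. All cKO libraries were above all controls. Ctnna2, the alpha-catenin of neurons, and Ctnnd2, a neuronal delta-catenin, fell against the floxed controls, by log2 fold changes of -0.51 and -0.38 (limma adjusted p = 0.00154 and 0.006), and did not pass against the Cre controls. Pkp3, a plakophilin of epithelial desmosomes, was at 0.84 (limma adjusted p = 0.00082) and 0.52 (limma adjusted p = 0.0259), and the desmosomal cadherin Dsc2 at 0.68 (limma adjusted p = 0.00083) and 0.41 (limma adjusted p = 0.0279). Of the 9 desmosomal cadherins 2 were tested, Dsc2 and Dsg2, and both rose against the floxed controls. Without cKO replicate 1 the calls of Ctnna1, Pkp3 and Dsc2 against the Cre controls were lost (limma adjusted p = 0.118, 0.0932 and 0.108). The same held on omission of cKO replicate 2 or of Cre control replicate 3 and in the fit of those 6 libraries alone, those of Pkp3 and Dsc2 also without cKO replicate 3, and that of Ctnna1 without floxed control replicate 3, with limma adjusted p between 0.0507 and 0.0972.

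Of the 10 large cadherins of the Fat, Dachsous and Celsr families, Celsr1, which acts in planar polarity of the neuroepithelium, rose against both controls, with values of 11.01, 10.96 and 11.04 in floxed controls, 10.88, 11.06 and 11.10 in Cre controls and 11.25, 11.49 and 11.28 in the cKO and log2 fold changes of 0.34 (limma adjusted p = 0.0058) and 0.32 (limma adjusted p = 0.0271). Its adjusted p against the Cre controls rose to between 0.0524 and 0.0693 without Cre control replicate 2 or 3, cKO replicate 1 or 2, or the floxed controls. Celsr3, which guides axon tracts, fell against the floxed controls at -0.44 (limma adjusted p = 0.00741). The other 8 did not pass. Among 6 tested calsyntenins and cadherin-related genes, 5 fell against the floxed controls, such as Clstn2 at -0.50 and Clstn3 at -0.48, and none passed against the Cre controls (1 at an unadjusted p under 0.05). Clstn3 had an adjusted p of 0.0505, 0.0531 and 0.0658 by limma without floxed control replicate 1, floxed control replicate 3 and cKO replicate 1. Nectin4 was the 1 of 4 nectins that rose against the floxed controls, at 0.64 (limma adjusted p = 0.00415), and none passed against the Cre controls, with 2 at an unadjusted p under 0.05. Of 12 regulators of clustered protocadherin promoters, such as Ctcf and the cohesin subunits, only Rad21 rose against the floxed controls (limma adjusted p = 0.0478, and not under 0.05 in 11 of the alternative fits), and none passed against the Cre controls (1 at an unadjusted p under 0.05), with all log2 fold changes between -0.082 and 0.13 in the comparisons of the cKO. Of 13 signaling partners of protocadherins, 3 rose and 4 fell against the floxed controls, beside 19.5% and 18.8% of all genes. None passed by limma against the Cre controls, where 5 had an unadjusted p under 0.05, as did 29.3% of all genes. Of 6 genes of cadherin shedding and processing, the proprotein convertases Furin and Pcsk6 rose against the floxed controls, at 0.37 and 0.96. None of the 6 passed against the Cre controls, and 0 had an unadjusted p under 0.05 there. Pcsk6 was also higher in Cre controls, at 1.01 (limma adjusted p = 0.0128) relative to the floxed controls (adjusted p = 0.0575 by limma without Cre control replicate 3). Furin did not pass between the controls. Its values were 9.815, 9.942 and 9.78 in floxed controls and 10.29, 10.19 and 10.22 in Cre controls. In the cKO they were 10.11, 10.3 and 10.23. In these lists, genes that did not pass against both controls were named after their values were seen.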

How the data were processed

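The authors dissected fetal midbrain, prepared poly-A selected libraries with the NEBNext Ultra kit and deposited 1 table of log2 values, normalized between libraries, with a value for each of 9 libraries. The transformation is not given in the sources used here. The submitters' processing notes name FastQC 0.10.1, kallisto 0.46.1, DESeq2 and the mm10 build.

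Where a symbol had several table rows, the highest was kept (240 dropped), and the 92 cadherin and protocadherin genes had 1 each. Rows without a gene name held 0.334% to 0.396% of the linear sum. limma 3.58.1 in R 4.3.3 (lmFit, then eBayes with a trend on the mean level) was fitted with a mean per genotype to all 9 libraries and 14029 genes, with two-sided tests and Benjamini-Hochberg adjustment. The fit was tested on simulated data. A count model had been planned and could not be used on log2 values. The study's fold limit of 1.5 was kept as an additional rule. A permutation of 3 libraries against 3 cannot reach a p under 0.05, so none was used.

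Genes with full values were those past the adjusted p of 0.05 against both controls, those also past the fold limit in any comparison, and listed cadherins and delta protocadherins. Members and lists, written from general knowledge, were chosen with earlier results of these data known. Positions, transcript lengths and shared exons come from GENCODE on GRCm38, where 91 of the 92 genes were found (not Pcdha10). Alternatives were other filters, no trend, 6 libraries only, a replicate block, median centring, quantile normalization, the fold limit and the omission of each library; a GC and length correction was added after seeing the data.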

Additional observations from a re-analysis of the deposited data

How the results depend on the processing

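Where 1 library was left out at a time, the genes of the family lower in the cKO numbered 31 to 59 against the floxed controls (45 with all libraries) and 0 to 39 against the Cre controls (10 with all), while 12.6% to 22.6% and 0.691% to 12.5% of all genes were lower in the same fits. Those higher numbered 2 to 5 (4 with all) and 1 to 3 (2 with all), beside 13.1% to 24.1% and 0.998% to 10.9% of all genes. The median of the clustered protocadherins ranged from -0.22 to -0.083 against the Cre controls, and from -0.18 to -0.049 between the controls. With a fold change over 1.5 also required, 0 genes were lower against either control, beside 1.58% (floxed) and 0.228% (Cre) of all genes. On that rule 1 was higher against the Cre controls, beside 0.335% of all genes. Against the Cre controls, 6 were lower and 1 higher without a filter on low values (2.25% and 2.22% of all genes), with a median of -0.062 for the Cdh genes, which was -0.14 with the filter, and 1 was lower and 1 higher when only those 6 libraries were fitted (1.51% and 1.60% of all genes). No called direction reversed under these alternatives.

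Libraries with the same replicate number correlated between -0.027 and 0.26 after removal of the genotype means, which does not establish a pairing. With a replicate block, 49 genes fell and 5 rose against the floxed controls (19.9% and 20.7% of all genes), 13 fell and 2 rose against the Cre controls (6.61% and 6.03%), and none passed between the controls. Each group holds 3 libraries of unknown depth, and the compressed values of weakly expressed genes limit what can be seen for the 9 genes below the filter.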
